A study of Mus musculus with 12 samples.

Results

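The comparison described here set marginal zone B cells (MZB) without LSD1 against follicular B cells (FoB) without LSD1, to find which differences between the cell types stand when the demethylase is missing. It rests on 6 of the 12 libraries of the study, 3 from knockout MZB and 3 from knockout FoB. The spread between libraries was estimated from all 12. A region entered when 3 or more of the 12 libraries reached 1 rppm there, and 89782 of the 94161 deposited regions did. The unit rppm is the number of reads in a region after each library was scaled to 1000000 reads over all listed regions. Open chromatin had been assayed with ATAC-seq, where Tn5 transposase cuts and tags accessible DNA, on 10000 sorted cells per library. All cells were unstimulated and came from the spleen, in female mice of the C57BL/6J strain. Both gates took B220+ cells and left out those with Thy1.1, F4/80, the integrin CD11b, CD93 or the germinal centre marker GL7. The MZB gate was CD21hi, CD1d+ and CD23-, and the FoB gate CD21mid, CD1d- and CD23+. The other 6 libraries came from wild-type MZB and wild-type FoB sorted the same way. The sources used here do not give the cells in which LSD1 was deleted, the means of deletion, the age of the mice or whether the libraries of a group came from separate animals. The p-values therefore measure the spread between libraries, which may be technical.

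Marginal zone B cells stay at the edge of the splenic white pulp, where they meet blood-borne antigens and quickly become antibody-secreting cells. Their formation needs Notch2 signalling, and their position needs sphingosine-1-phosphate receptors and integrins. Follicular B cells circulate between blood and lymphoid follicles and serve T cell-dependent responses. LSD1, encoded by Kdm1a, takes methyl groups off lysine 4 of histone H3 at enhancers and promoters as part of complexes with CoREST and histone deacetylases.

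Promoter windows of 5 genes show what the comparison looked like at the DNA that was tagged. Each line gives the window from 250 bases before to 50 after the annotated start, from RefSeq on GRCm38.p6 (mm10), written 5′ to 3′ along the gene. The genes were chosen after their values were seen, with Ackr3 and Gpr31b for openness in knockout MZB and Fcer2a, Cr2 and Satb1 for openness in knockout FoB. Capitals mark matches, on either strand, to 9 short motifs. These were TGGGAA for RBPJ, CAGGTG for E-box factors, TGANTCA for AP-1, GAGGAAGT for PU.1, ATGCAAAT for octamer factors, TGTGGTT for RUNX and GGGTGGG for KLF factors, besides a 10-letter site each for NF-kB and EBF1, which matched none of these windows.
Ackr3 promoter: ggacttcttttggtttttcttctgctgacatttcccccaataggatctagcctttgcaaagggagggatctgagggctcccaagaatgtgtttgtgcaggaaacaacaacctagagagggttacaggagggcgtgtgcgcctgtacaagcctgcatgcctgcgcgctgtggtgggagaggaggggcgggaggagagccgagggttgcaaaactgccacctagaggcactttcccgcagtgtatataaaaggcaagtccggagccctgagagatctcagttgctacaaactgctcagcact
Gpr31b promoter: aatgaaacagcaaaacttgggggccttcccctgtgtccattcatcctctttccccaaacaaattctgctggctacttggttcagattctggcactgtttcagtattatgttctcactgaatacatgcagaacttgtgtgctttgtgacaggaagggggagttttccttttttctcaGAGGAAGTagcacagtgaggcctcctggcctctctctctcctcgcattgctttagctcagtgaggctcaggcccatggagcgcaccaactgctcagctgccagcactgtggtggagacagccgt
Fcer2a promoter: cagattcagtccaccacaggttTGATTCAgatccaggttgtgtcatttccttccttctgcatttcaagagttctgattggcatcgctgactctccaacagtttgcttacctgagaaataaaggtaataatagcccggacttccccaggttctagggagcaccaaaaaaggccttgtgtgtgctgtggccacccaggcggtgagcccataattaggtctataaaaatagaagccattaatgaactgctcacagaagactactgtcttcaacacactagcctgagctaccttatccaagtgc
Cr2 promoter: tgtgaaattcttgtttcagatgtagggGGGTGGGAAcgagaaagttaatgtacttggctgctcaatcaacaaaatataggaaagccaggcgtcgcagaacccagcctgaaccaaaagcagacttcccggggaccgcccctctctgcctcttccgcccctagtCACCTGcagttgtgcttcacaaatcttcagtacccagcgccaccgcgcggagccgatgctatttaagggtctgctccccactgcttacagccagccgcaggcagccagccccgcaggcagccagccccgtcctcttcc
Satb1 promoter: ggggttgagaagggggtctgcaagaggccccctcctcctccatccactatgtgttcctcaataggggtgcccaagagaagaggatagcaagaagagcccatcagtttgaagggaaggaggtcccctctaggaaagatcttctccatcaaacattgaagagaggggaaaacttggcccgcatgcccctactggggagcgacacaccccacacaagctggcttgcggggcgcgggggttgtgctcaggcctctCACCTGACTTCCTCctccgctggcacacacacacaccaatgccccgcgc

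The Ackr3 window (chr1:90203730-90204029, + strand) held none of the 9 motifs. Gpr31b (chr17:13052231-13052530, - strand) held the PU.1 letters, which stand in 3.13% of all 21263 windows. In Fcer2a (chr8:3694125-3694424, - strand) the AP-1 letters matched, as in 6.99% of all windows. The Cr2 window (chr1:195176670-195176969, - strand) held the E-box letters, as did 19.7% of all windows, and a run in which the KLF letters (18.9% of windows) overlap the RBPJ letters (24.5%). In the Satb1 window shown (chr17:51833241-51833540, - strand, the most upstream of 3 for that gene) an E-box match and a PU.1 match lie side by side. A match is a run of letters and shows no binding.

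Ackr3 encodes an atypical chemokine receptor that takes up CXCL12. The region over its promoter held 17.5, 20.8 and 18.3 rppm in the 3 knockout MZB libraries and 2.90, 3.91 and 3.05 rppm in knockout FoB. The groups did not overlap, and the log2 difference on the log2(rppm + 0.5) scale was 2.36 ± 0.20 (SE, limma adjusted p = 1.09e-11). Gpr31b encodes a G protein-coupled receptor. Its promoter region held 21.5, 21.1 and 19.8 rppm against 0.828, 1.65 and 1.27 rppm, again apart in all 6 libraries (3.63 ± 0.23, adjusted p = 5.76e-15). On the follicular side, the region at the Fcer2a promoter, which drives the low-affinity IgE receptor CD23, held 34.1, 31.6 and 28.4 rppm in the knockout MZB libraries and 66.0, 65.3 and 66.1 rppm in the knockout FoB ones. Every knockout FoB library lay above every knockout MZB library (log2 difference -1.06 ± 0.11, adjusted p = 2.25e-09). At the Satb1 promoter window, which serves the gene of a chromatin organiser, the values were 30.1, 38.8 and 45.5 rppm against 45.3, 58.3 and 72.4 rppm. The groups overlapped narrowly there, while the difference passed the test (-0.61 ± 0.13, adjusted p = 0.000337). Wild-type cells gave log2 differences of 2.42, 3.16, -1.26 and -0.53 at these 4 regions, all past the test.

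Across the genome, limma called 20846 regions higher (23.2% of those tested) and 8503 lower (9.47%) in knockout MZB than in knockout FoB at an adjusted p below 0.05. Differences of at least 2-fold made up 13868 of the higher calls (15.4% of tested regions) and 998 of the lower calls (1.11%). The median log2 difference was 1.21 among higher and -0.50 among lower calls. The 3 libraries of each group did not overlap at 19812 of the higher and 7768 of the lower calls, where 28.9% and 13.3% of all tested regions were apart in these directions. More open chromatin in a bulk sample can mean more cells with the region open or more cutting in each cell, and these cannot be told apart. Called regions fell to 7155 protein-coding genes on the higher side and 5144 on the lower side. Of 16304 genes with a tested region, 4831 had higher calls alone, 2820 lower calls alone, 2324 calls in both directions and 6329 no call.

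The split of calls between the directions depended on scaling. With the deposited scaling 71.0% of calls were higher in MZB. The share was 52.9% (16479 higher, 14682 lower) in edgeR with TMM, 55.1% (11848 and 9671) in DESeq2, 53.0% (12246 and 10867) after quantile normalisation and 30.8% (11311 and 25469) with each library centred on its median. In this order, the settings moved the median difference of all regions by -0.14, -0.12, -0.23 and -0.40 on the log2 scale. Where a gene or list was also counted under other scalings and its balance of calls turned, the counts under at least 1 such scaling stand beside those given. Statements on gene groups are therefore given relative to the median of all tested regions, which was 0.14 in knockout and 0.18 in wild-type cells.

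Library facts bear on these counts. The knockout MZB libraries held 4287593, 3169966 and 3383716 reads and the knockout FoB libraries 4832426, 4854978 and 3934641, so 3 reads amounted to between 0.618 and 0.946 rppm. Reads carry no molecular identifiers, so such floors cover counting error only. The leading principal component (53.4% of variance) parted the cell types. On the next (9.3%), knockout MZB library 1 (18.2 against 72.6 and 67.6) and knockout FoB library 3 (-13.7 against 41.7 and 45.0) stood apart from their groups. Wild-type MZB lay at -46.7, -46.1 and -64.1 on this component, and wild-type FoB at -71.05, 9.59 and -13.1. Both odd knockout libraries thus lay toward the wild-type ones of their cell type, knockout FoB library 3 within their range. The reason was not tested. Without these knockout libraries, 15798 regions were higher and 6466 lower, of which 12007 and 1130 by at least 2-fold. At Kdm1a the only tested region, over the promoter, held 25.1 ± 5.55 rppm in knockout MZB and 20.6 ± 0.061 in knockout FoB (SD, n = 3). The sources used here do not say what was deleted from the gene, so this value is no check of the labels.

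Most differences of wild-type cells were present without LSD1. In wild-type cells 21757 regions were higher (24.2%) and 10269 lower (11.4%) in MZB. Of the wild-type higher regions, 15797 (72.6%) were also called higher in knockout cells, where 23.2% of all regions were, and 97.7% had the same sign. Of the wild-type lower regions, 6158 (60.0%) were also called lower, where 9.47% of all regions were, and 96.7% had the same sign. The median log2 difference of these lists went from 1.21 in wild-type to 1.05 in knockout cells on the higher side and from -0.54 to -0.40 on the lower side. Because each list was chosen on the wild-type values, its own median is raised by that choice. Read the other way, 75.8% of the knockout higher and 72.4% of the knockout lower regions were called the same way in wild-type cells, with medians of 1.09 and -0.46 there against 1.21 and -0.50 in knockout cells. The 4 groups share no library between the genotypes, but both sets of calls use 1 estimate of spread per region, from all 12 libraries. A region of small spread is thus more easily called in both. With each genotype fitted on its own 6 libraries, 21550 regions were called the same way in both. Over the 89782 regions the knockout and wild-type differences had a Pearson r of 0.806 and a Spearman correlation of 0.751. Regions share libraries, so these describe the plot and carry no p.

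**Figure D1:**
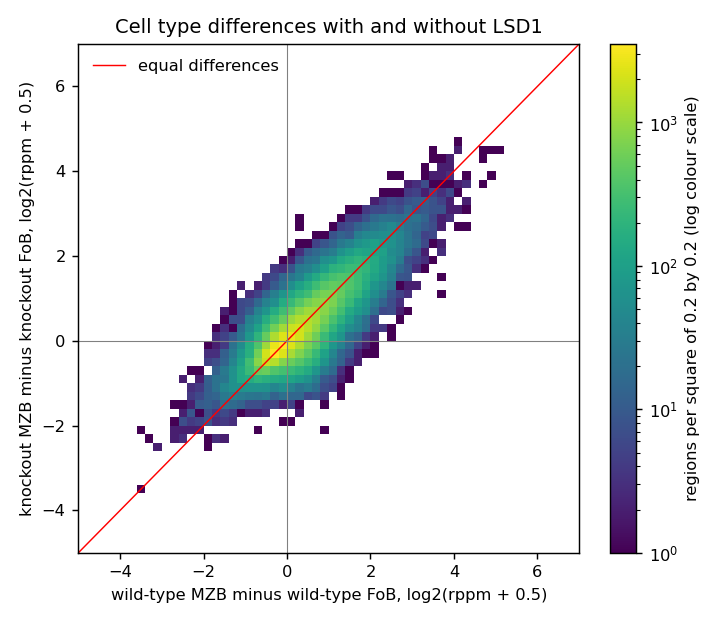
Density plot of 89782 regions with the log2 difference between MZB and FoB in wild-type cells on the horizontal axis and in knockout cells on the vertical axis, both on the log2(rppm + 0.5) scale, coloured by the number of regions per square on a log scale. The cloud follows the line of equal differences (Pearson r of 0.806) and reaches farther on the side more open in MZB than on the side more open in FoB.

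Larger wild-type differences were followed in the same way. Of 14474 wild-type regions at least 2-fold higher (16.1% of tested), 78.6% were called higher in knockout cells and 98.3% kept their sign. Of 1410 at least 2-fold lower (1.57%), 59.9% were called lower and 94.3% kept their sign, and their median log2 difference was -1.25 in wild-type and -0.85 in knockout cells. Calls in both genotypes agreed in direction at 21955 regions and were opposite at 15. The 15 were regions with a median level of 3.20 rppm over the groups, 9 of them were higher in knockout MZB, and in none did the difference between genotypes pass (adjusted p from 0.159 to 0.616).

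The regions with the largest log2 differences toward knockout MZB, named for that size, were nearly closed in knockout FoB. Map1b, the gene of a microtubule-binding protein, had a region (chr13:99502309-99502855) with 18.4, 19.2 and 16.0 rppm in the knockout MZB libraries against 0.207, 0.824 and 0 rppm in the knockout FoB ones (log2 difference 4.56 ± 0.28, adjusted p = 4.39e-15). Kalrn, the gene of a guanine nucleotide exchange factor, had one (chr16:34248193-34248675) with 15.2, 24.0 and 17.4 against 0.621, 0.206 and 0.254 rppm. In both, the FoB libraries together gave 5 reads. The same pattern held at Slc7a11, the cystine and glutamate exchanger gene (chr3:50438802-50439264, 13.3, 12.6 and 12.7 rppm against 0, 0.206 and 0), and at Prkdc, the gene of the catalytic subunit of the DNA repair kinase DNA-PK (chr16:15832010-15832428, 12.8, 13.6 and 11.5 against 0, 0.412 and 0). Their FoB values come from 1 and 2 reads, so no fold is given. Regions at Ccdc192, Serpina9, a serpin gene of germinal centre B cells, and Tmod2, which caps actin filaments, followed. These 7 were also called higher in wild-type MZB, with log2 differences from 3.46 at Serpina9 to 4.97 at Map1b, and at none did the difference between genotypes pass (adjusted p of 0.786 or more).

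Regions with the largest differences toward knockout FoB were named by the same rule. A region inside Gpatch2 (chr1:187369041-187369416) held 27.9, 26.2 and 28.2 rppm in knockout FoB and 2.33, 1.58 and 2.36 rppm in knockout MZB (log2 difference -3.45 ± 0.23, adjusted p = 3.12e-14). Every FoB library lay far above every MZB library. Tnfrsf8, which encodes CD30, had a region (chr4:145305696-145306311) with 19.7, 17.1 and 23.6 rppm against 4.20, 2.21 and 2.96 rppm (-2.54 ± 0.21, adjusted p = 1.08e-11). Sgk1, a kinase gene induced by glucocorticoids (chr10:21908821-21909093), gave 13.2, 14.4 and 10.4 against 2.33, 2.21 and 3.25 rppm (-2.09 ± 0.24, adjusted p = 7.93e-09). Regions at Wwox, an oxidoreductase gene, Slc4a3, an anion exchanger gene, Antxr2, an anthrax toxin receptor gene, Nsmce1, a subunit gene of the SMC5/6 complex, and Pgpep1l followed with log2 differences between -2.49 and -2.06. In wild-type cells these 8 regions were also called lower, from -3.57 at Gpatch2 to -1.52 at Antxr2.

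**Figure D2:**
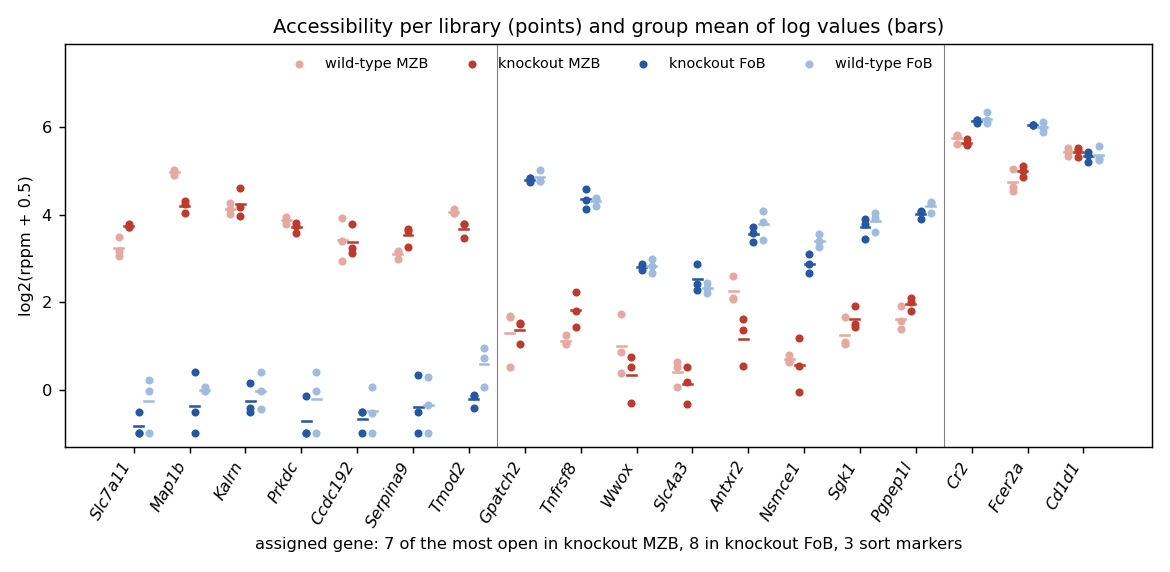
Accessibility on the log2(rppm + 0.5) scale at 18 regions, with each point a library and each bar the group mean of the log values, for wild-type MZB, knockout MZB, knockout FoB and wild-type FoB. The 7 regions on the left lie near 0 rppm in both FoB groups, the next 8 are lower in both MZB groups, and of the 3 sort marker regions on the right Fcer2a and Cr2 are lower in MZB while Cd1d1 overlaps.

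Regions assigned to genes of the marginal zone programme were higher in knockout MZB more often than all regions. Here and below, regions at a gene are those assigned to it, at any distance. Of 400 regions at the programme's 19 genes, 188 were higher (47.0%) and 29 lower (7.25%), against 23.2% and 9.47% of all regions. In wild-type cells the counts were 195 and 35. The knockout median log2 difference was 0.57, which is 0.43 above that of all regions. All 14 regions at Ackr3 were higher, as were 17 of 19 at Cd9, a tetraspanin of marginal zone and B-1 cells, and 30 of 32 at Zc3h12c, an RNA-binding zinc finger gene. At none of these 3 genes was a region lower. Of their regions, 8, 10 and 6, in this order, lay within 10000 bp of the gene. The Cd9 region with the smallest p (chr6:125460666-125461822) held 70.2, 79.5 and 73.6 rppm in knockout MZB against 20.5, 24.7 and 19.3 rppm in knockout FoB (1.77 ± 0.12, adjusted p = 2.24e-14). Dtx1, a Notch target that encodes an E3 ligase, had a region within the gene (chr5:120683245-120683829) at 27.5, 32.8 and 32.5 against 4.14, 6.18 and 5.34 rppm (2.47 ± 0.18, adjusted p = 1.44e-13). Marcks, whose product links actin to the membrane, had 29 of 78 regions higher and 7 lower (14 and 16 with median centring). Of the 78, 6 lay within 10000 bp of the gene. Cd36, a scavenger receptor gene, had 11 of 19 higher. The genes of CD21 and TACI did not follow the list. Cr2 had 5 of 20 regions lower and 1 higher, and Tnfrsf13b had 1 of 11 in each direction.

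The follicular programme was split between genes. Of 359 regions at 15 genes, 69 were lower (19.2%) and 48 higher (13.4%) in knockout MZB, against 9.47% and 23.2% of all regions. In wild-type cells the counts were 80 and 51. The knockout median was -0.06, which is 0.20 below that of all regions. Lower calls alone were found at Cd55, a complement regulator gene (4 of 9 regions), Ms4a4c (4 of 7), Fcer2a (3 of 5) and Klf2, a factor of quiescence and homing (2 of 7). Satb1 had 18 of 48 regions lower and 1 higher. Higher calls in this list came chiefly from Bach2, a repressor that holds back plasma cell formation, with 30 of 87 regions higher and 7 lower (13 and 22 with median centring). Its region at chr4:32405960-32406450 held 22.2, 30.0 and 31.0 against 6.62, 6.18 and 7.12 rppm (1.97 ± 0.16, adjusted p = 2.99e-12). A region 286662 bp from Cxcr4, the CXCL12 receptor gene nearest to it, held 18.0, 21.5 and 21.9 against 0.207, 1.03 and 0.508 rppm (4.34 ± 0.31, adjusted p = 1.50e-13), while the 44 regions assigned to Cxcr4 gave 5 calls in each direction. Assignment to the nearest gene does not show that a region acts on it.

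In the Notch pathway, higher calls in knockout MZB outnumbered lower ones at Rbpj, Maml2, Maml3, Notch1 and Notch2 with the deposited scaling. They did so over all regions too, and the targets were mixed. Of 237 regions at 20 genes, 79 were higher (33.3%) and 23 lower (9.70%), against 23.2% and 9.47% of all regions. In wild-type cells the counts were 73 and 30. The knockout median was 0.35, 0.21 above all regions. The knockout counts turned to 36 higher and 61 lower with each library centred on its median, where the list stayed 0.21 above all regions. Rbpj, the DNA-binding factor of the pathway, had 11 of 17 regions higher and 1 lower. The coactivator gene Maml2 had 14 of 48 regions higher and 4 lower (10 and 13 with median centring). Maml3, another coactivator gene, had 12 of 33 higher and 3 lower (2 and 8 with median centring), and Maml1 1 of 8 in each direction. A Maml2 region (chr9:13683999-13684503) held 14.2, 19.9 and 15.1 against 1.66, 1.24 and 1.78 rppm (3.03 ± 0.22, adjusted p = 2.79e-13). Of the receptors, Notch2 had 7 of 18 regions higher and 1 lower and Notch1 3 of 4 higher. The glycosyltransferase gene Lfng, whose product sugars the receptors, went the other way with 4 of 6 regions lower. Its region 9807 bp from the gene (chr5:140596344-140597534) held 10.0, 12.6 and 10.9 rppm in knockout MZB against 30.8, 29.5 and 33.0 rppm in knockout FoB (-1.44 ± 0.13, adjusted p = 1.36e-10). Hes1, a repressor induced by Notch, had 6 of 27 regions higher and 5 lower, with a majority of lower calls (6 and 8) in edgeR with TMM. Among the other targets, Dtx1 had 6 of 12 regions higher, Hes5 2 of 4, Nrarp 2 of 10 and Hey1 1 of 4. None of these had a lower call, and the higher shares at Nrarp and Hey1 were near that of all regions. With median centring Nrarp had 0 higher and 2 lower and Hey1 0 and 1.

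Receptors and adhesion molecules that place B cells in the spleen differed gene by gene. In the migration and adhesion list, 96 of 400 regions were higher (24.0%) and 47 lower (11.75%), near the 23.2% and 9.47% of all regions. In wild-type cells the counts were 96 and 66. The knockout median of 0.10 was 0.04 below all regions. Lower calls outnumbered higher ones in this list with median centring (63 and 146), quantile normalisation (68 and 78) and TMM (76 and 87). Itgb1, the integrin beta 1 chain, had 17 of 20 regions higher, S1pr3 13 of 17 and S1pr2 3 of 3. Rgs1, a brake on chemokine receptor signalling, had 10 of 17. These 4 genes had no lower call, and 5, 6, 2 and 2 of their regions lay within 10000 bp. S1pr1, the receptor for egress and for marginal zone position, had 18 of 53 regions higher and 8 lower (16 and 21 with median centring). Of the 53 S1pr1 regions, 8 lay within 10000 bp. Its region with the smallest p (chr3:115568252-115568706, 141727 bp away) held 19.4, 26.2 and 25.1 against 2.07, 1.24 and 1.27 rppm (3.58 ± 0.21, adjusted p = 1.00e-15). The Itgb1 region with the smallest p held 11.4, 15.5 and 13.0 against 0.828, 1.03 and 0.763 rppm. At both, all MZB libraries were above all FoB libraries. Itga4, the integrin alpha 4 chain, and Gnai2, an inhibitory G protein subunit, were on the follicular side with 5 of 28 and 2 of 7 regions lower, against 1 and 0 higher.

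Among B lineage transcription factors, 243 of 1203 regions were higher (20.2%) and 142 lower (11.8%), near the 23.2% and 9.47% of all regions. In wild-type cells the counts were 229 and 175. The knockout median was 0.06 below all regions. The knockout counts turned to 187 and 245 with TMM, 141 and 224 with quantile normalisation and 111 and 415 with median centring. Mef2c, a MADS-box factor downstream of antigen receptor signals, had 41 of 115 regions lower and 4 higher, and Ebf1, a factor of B cell identity, 29 of 83 lower and 5 higher. An Ebf1 region 108504 bp away (chr11:45116600-45117294) held 13.5, 14.2 and 14.8 rppm in knockout MZB against 40.4, 40.0 and 36.3 rppm in knockout FoB (-1.42 ± 0.12, adjusted p = 1.21e-11). In the other direction, Id2, which blocks E proteins, had 31 of 51 regions higher and 2 lower. Zeb2, a zinc finger repressor, had 42 of 91 and 3, and Klf4, a factor that slows division, 12 of 42 and 0. Within 10000 bp of Id2, Zeb2 and Klf4 lay 3, 20 and 4 of their regions. The Id2 region with the smallest p, 209898 bp away (chr12:25305990-25306647), held 14.2, 12.3 and 16.3 against 1.86, 2.06 and 2.03 rppm (2.56 ± 0.22, adjusted p = 2.19e-11). Foxp1, a forkhead factor of mature B cells, had 25 of 131 regions higher and 5 lower, but 10 and 16 with quantile normalisation and 5 and 35 with median centring. Pax5, the B cell commitment factor, had 4 of 32 higher and 2 lower, and 2 and 4 with TMM.

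The genes with the most calls over the whole genome were in part the same. Among those with the most higher calls were Tenm4, a teneurin gene (45 of 83 regions), Atxn1, the ataxin 1 gene (43 of 61), Zeb2 and Immp2l, a mitochondrial peptidase gene (36 of 90). Lower calls were most frequent at Mef2c, Btg1, an antiproliferative gene (30 of 78), Bcl11a, Ebf1 and Rpia (29 of 142). For Rpia, 114 of the regions lie in the span of the kappa light chain V segments, which are not in the protein-coding set used for assignment. Near-identical copies there can share reads, so this count is uncertain.

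Plasma cell genes lay above the background and germinal centre genes near it. In the plasma cell list, 47 of 130 regions were higher (36.2%) and 14 lower (10.8%), where all regions had 23.2% and 9.47%. In wild-type cells the counts were 49 and 14. The knockout median was 0.36, 0.22 above all regions. With median centring the knockout counts were 22 and 37. Ell2, an elongation factor for immunoglobulin secretion, had 11 of 14 regions higher, and Prdm1, the gene of Blimp-1, 15 of 39 higher and 5 lower (7 and 14 with median centring). A region 195232 bp from Prdm1 (chr10:44723790-44724247) held 14.7, 16.7 and 17.7 against 5.17, 4.53 and 3.30 rppm (1.82 ± 0.22, adjusted p = 4.57e-08). Sdc1, which encodes the plasma cell surface protein syndecan 1, had 4 of 10 regions lower. In the germinal centre list, 13 of 60 regions were higher (21.7%) and 1 lower (1.67%), against 9 and 7 in wild-type cells. With TMM the knockout counts were 9 and 11.

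Signalling lists held calls in both directions. The balance turned with scaling in the B cell receptor, Toll-like receptor, canonical NF-kB, AP-1 and interferon lists, and lower calls led with the deposited scaling, median centring, quantile normalisation and TMM in the noncanonical NF-kB, cell cycle and housekeeping lists. Among B cell receptor genes 39 of 278 regions were higher (14.0%) and 27 lower (9.71%), where all regions had 23.2% and 9.47%. The counts were 36 and 43 in wild-type cells, and 23 and 58 in knockout cells with TMM. The knockout median was 0.08 below all regions. Syk, the kinase next to the receptor, had a region within the gene (chr13:52636150-52636796) at 26.8, 30.3 and 29.0 against 2.90, 5.77 and 3.30 rppm (2.75 ± 0.19, adjusted p = 7.44e-14), and the gene had 3 of 23 regions higher and 1 lower (2 and 3 with TMM). Prkcb, a protein kinase C gene, had one within the gene (chr7:122393877-122394408) at 15.6, 17.7 and 15.7 against 32.7, 36.5 and 27.2 rppm (-0.95 ± 0.13, adjusted p = 3.71e-07), although 8 of its 40 regions were higher and 3 lower (6 and 9 with TMM). Toll-like receptor genes had 38 of 174 regions higher and 15 lower (19 and 62 with median centring), with 9 of 13 higher at Ly96, the TLR4 partner MD-2, and 8 of 19 at Cd180, a TLR4-like receptor of B cells. These shares of the list, 21.8% and 8.62%, were close to the 23.2% and 9.47% of all regions, and its median was 0.07 below theirs (0.03 above with quantile normalisation). Canonical NF-kB genes had 35 of 187 higher (18.7%) and 24 lower (12.8%, or 24 and 48 with TMM), with a median 0.15 below all regions. There the region over the promoter of Tnfaip3, the inhibitor A20, was lower (61.6, 60.3 and 45.5 against 88.8, 94.1 and 98.9 rppm), while 9 of the gene's 33 regions were higher and 2 lower (4 and 11 with median centring). Noncanonical NF-kB genes had 5 of 58 higher (8.62%) and 10 lower (17.2%), with a median 0.18 below all regions. Activation and AP-1 factors had 40 of 233 higher (17.2%) and 35 lower (15.0%, or 33 and 51 with TMM), with a median 0.10 below all regions and all 4 regions of Fosl2, an AP-1 subunit, higher. A region 225646 bp from Nr4a3, an orphan nuclear receptor gene, held 26.6, 29.3 and 30.4 against 3.31, 1.85 and 2.80 rppm (3.24 ± 0.21, adjusted p = 2.44e-14). Nr4a3 had 6 of 15 regions higher and 1 lower. Interferon response genes had 12 of 47 regions higher (25.5%) and 8 lower (17.0%, or 7 and 12 with TMM). Cell cycle genes had 20 of 134 (14.9%) higher and 21 (15.7%) lower, and housekeeping genes 9 of 53 (17.0%) and 13 (24.5%). The medians of these 3 lists were 0.06, 0.11 and 0.15 below all regions, although with quantile normalisation those of the interferon and housekeeping lists were 0.0061 and 0.010 above.

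Genes of LSD1 complexes and partners had more lower than higher calls, and most of the lower ones lay at a single gene. Of 243 regions at 19 genes, 16 were higher (6.58%) and 41 lower (16.9%), against 23.2% and 9.47% of all regions. In wild-type cells the counts were 16 and 44. The knockout median was 0.21 below all regions. Bcl11a, a zinc finger repressor that recruits LSD1 complexes, made up 29 of the lower calls with 93 regions. The other 18 genes had 14 of 150 regions higher (9.33%) and 12 lower (8.0%), both under the shares of all regions, and a median 0.11 below theirs. These 18 were not counted apart under other scalings. The full list had 4 higher and 98 lower with median centring, more than the 93 regions of Bcl11a, so the balance of the 18 turned there. A region 11204 bp from Bcl11a (chr11:24184762-24185720) held 35.7, 32.2 and 36.7 rppm in knockout MZB against 66.2, 72.9 and 72.2 rppm in knockout FoB (-1.01 ± 0.10, adjusted p = 7.32e-10). At Gfi1b, a repressor that binds LSD1, 2 of 4 regions were higher. A region of these held 6.30, 4.10 and 5.32 against 0.828, 1.24 and 0.508 rppm (2.10 ± 0.37, adjusted p = 2.40e-05).

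Genes of immature and transitional B cells, which both gates should lack by CD93, had 15 of 146 regions higher (10.3%) and 30 lower (20.5%). All regions had 23.2% and 9.47%, and the wild-type counts of the list were 15 and 49. The list's median was -0.12 in knockout and -0.25 in wild-type cells, and its regions summed to 1225 to 1232 rppm in knockout MZB, 1342 to 1450 in knockout FoB, 1013 to 1079 in wild-type MZB and 1256 to 1347 in wild-type FoB. Vpreb1 and Rag2 had no tested region. Sox4, a factor of B cell progenitors, had 13 of 36 regions lower and 1 higher, against 22 and 0 in wild-type. Cd93 itself had 4 of 13 lower against 7, and Lef1, a factor of early lymphocytes, 6 of 23 against 12. No region of the list passed the test of the difference between genotypes, so these counts are not shown to differ.

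**Figure D3:**
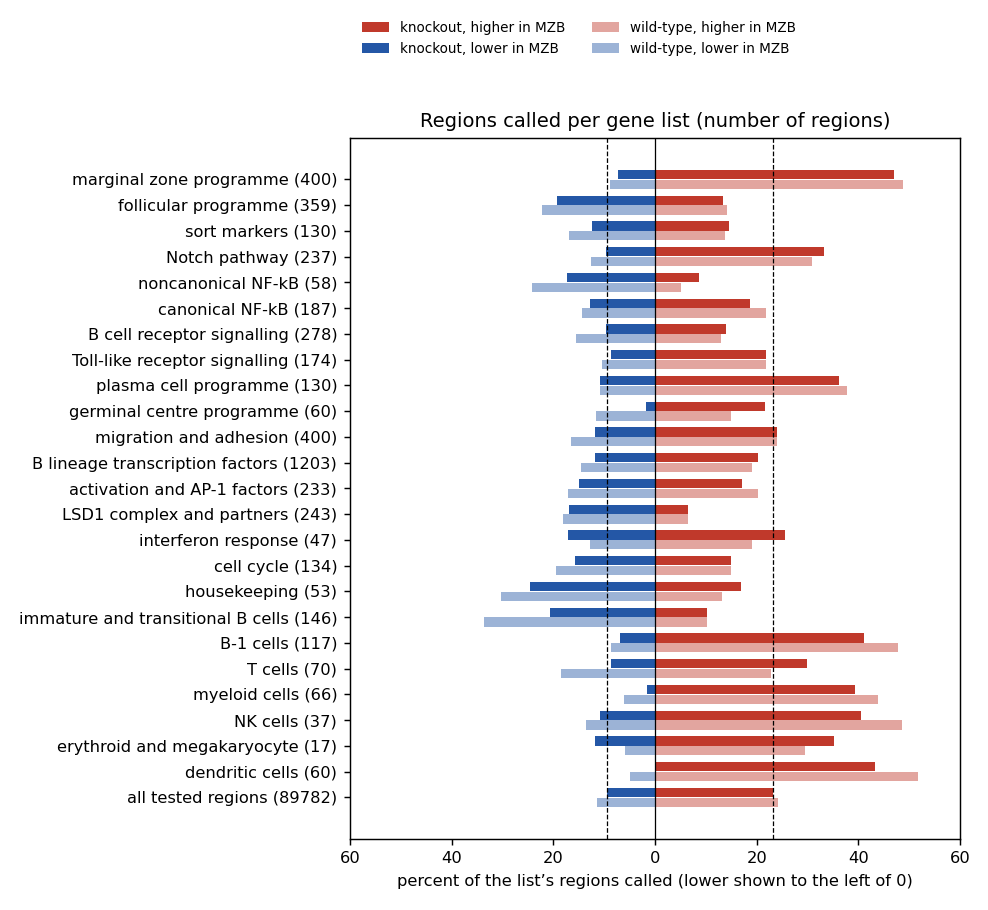
Percent of the regions of each gene list called higher (right of 0) and lower (left of 0) in MZB than in FoB, in knockout (dark bars) and wild-type cells (pale bars), with the number of regions in brackets and dashed lines at the shares of all tested regions in knockout cells. The marginal zone, B-1, myeloid, NK and dendritic cell lists reach 39.4% to 47.0% on the right, where the dashed line for all regions is at 23.2%.

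Markers of other cell types moved with the comparison and were followed as whole lists. The shares higher were 41.0% in the B-1, 39.4% in the myeloid, 43.3% in the dendritic cell and 40.5% in the NK cell list. They were 30.0% in the T cell and 35.3% in the erythroid and megakaryocyte list, against 23.2% of all regions. The shares lower were, in this order, 6.84, 1.52, 0, 10.8, 8.57 and 11.8%, against 9.47%. B-1 cell genes had 48 of 117 regions higher and 8 lower, and summed to 1451 to 1485 rppm in knockout MZB and 1027 to 1100 in knockout FoB. Myeloid genes had 26 of 66 higher and 1 lower, with sums of 613 to 637 against 469 to 487 rppm. Dendritic cell genes had 26 of 60 higher and 0 lower (3 lower in wild-type), with sums of 499 to 523 against 378 to 391 rppm. NK cell genes had 15 of 37 higher and 4 lower (483 to 528 against 453 to 490 rppm), T cell genes 21 of 70 and 6, or 14 and 15 with TMM (538 to 566 against 528 to 532 rppm), and erythroid and megakaryocyte genes 6 of 17 and 2 (87.2 to 93.4 against 66.8 to 73.3 rppm). Of the defining markers, Mpo, Elane and Vcam1 (myeloid), Cd3g, Cd4, Cd8a and Bcl11b (T cell), Gzma (NK cell) and Gp9 and Gp1ba (megakaryocyte) had no tested region. Csf1r, the receptor for macrophage growth factor, had 3 of 3 regions higher. The most significant held 11.9, 21.8 and 16.9 against 3.31, 4.12 and 3.05 rppm (2.09 ± 0.22, adjusted p = 2.72e-09). Adgre1 and Fcgr1 of the myeloid list did not follow. Adgre1 had 0 of 11 regions higher and 1 lower, and the 11 regions of Fcgr1 gave no call. Ahr, an aryl hydrocarbon receptor gene placed in the B-1 list, had 20 of 22 regions higher, which made up 20 of that list's 48 higher calls. Of the 22 Ahr regions, 3 lay within 10000 bp. Il5ra of the same list went the other way with 1 of 13 regions higher and 5 lower, and the 5 regions of S100a6 gave no call. In the NK cell list all 4 lower calls lay at Klrb1c, which had 1 of 14 regions higher. Marginal zone cells share some of these genes, and the part of other cells in the counts was not tested.

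The sort marker genes gave mixed values. At Cr2 the promoter region held 52.2, 47.6 and 48.5 rppm in knockout MZB against 67.9, 70.9 and 71.2 rppm in knockout FoB, so the gene of CD21 was less open in the cells sorted as CD21hi (-0.50 ± 0.092, adjusted p = 5.61e-05; wild-type -0.45). At Cd1d1, which encodes the CD1d of the MZB gate, the region of highest level held 43.9, 39.4 and 45.8 against 42.4, 41.0 and 36.1 rppm. The groups overlapped (0.11 ± 0.11, adjusted p = 0.473), with the sign turned under 3 scalings, while 5 of the gene's 15 regions were higher and 1 was lower. The regions of highest level at Ptprc, the B220 gene (-0.22, adjusted p = 0.0557), Adgre1, the F4/80 gene (-0.20, adjusted p = 0.155) and Thy1 (0.60, adjusted p = 0.244) did not pass. The Ptprc region passed as lower under 6 of 25 other settings and that of Adgre1 under 4, among them DESeq2, edgeR with TMM and median centring for both. At Itgam, which encodes CD11b, the call (0.43, adjusted p = 0.0297) was lost under 7 of the other settings. Over the list, 19 of 130 regions were higher (14.6%) and 16 lower (12.3%), where all regions had 23.2% and 9.47%. With TMM the counts were 9 and 23.

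The directions were unevenly spread over places in the genome. Regions over a promoter window were lower far more often than higher, with 3116 of 8939 lower (34.9%) and 731 higher (8.18%). Regions elsewhere in gene bodies were 27.4% higher and 6.71% lower, and regions between genes 22.0% and 6.61%. With median centring lower calls led in all 3 places (310 higher and 6790 lower at promoters, 6418 and 9890 in gene bodies, 4581 and 8728 between genes). Promoter regions also had higher levels, with a median of 29.6 rppm in knockout cells against 4.06 in gene bodies and 3.03 between genes. Lower calls became more frequent with level, while higher calls rose and then fell. Over the 8 equal bins of level, from the lowest up, 13.7, 20.7, 28.5, 31.5, 31.8, 30.2, 22.0 and 7.40% of regions were higher. In the eighth of regions with the highest mean level (25.1 to 497 rppm, not divided by width) 41.1% were lower, and in the lowest eighth 1.28%. Within the highest eighth, promoter regions were lower in 51.5% of cases and other regions in 32.5%. The median of promoter regions lay 0.35 below all regions with the deposited scaling and 0.03 below after quantile normalisation. Reads in promoter regions took 29.9, 29.4 and 29.7% of the knockout MZB libraries and 34.4, 34.8 and 36.2% of the knockout FoB libraries, and the 1000 fullest regions 11.2, 10.4 and 10.2% against 12.7, 12.8 and 13.8%. The groups did not overlap in either measure, but 3 libraries against 3 allow no exact permutation p below 0.1, which both reached (two-sided). Wild-type cells gave 29.7% ± 0.352 and 35.6% ± 0.971 (SD, n = 3) for promoter reads. The part of this library-wide difference in the calls was not tested.

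**Figure D4:**
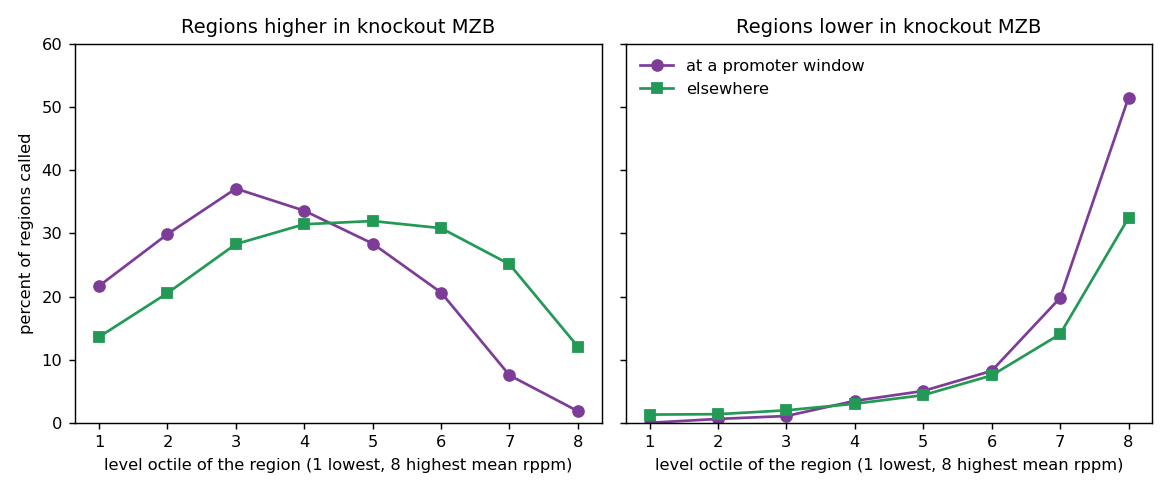
Percent of regions called higher (left) and lower (right) in knockout MZB across 8 equal bins of mean level in rppm, for regions over a promoter window and regions elsewhere. Lower calls climb to 51.5% of promoter and 32.5% of other regions in the top bin, and higher calls drop to 1.84% and 12.1% there.

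Promoter windows over called regions differed in base composition and in some motif shares. Windows over higher regions (800 windows) had a median GC content of 58.3% and windows over lower regions (3887) 63.3%, beside 56.3% over all 21263 windows and 62.0% over the 10703 windows with a tested region. The AP-1 letters stood in 6.63% of windows over higher regions, 8.90% of the 382 at least 2-fold higher and 3.68% of windows over lower regions, against 4.05% of windows with a tested region. For the RBPJ letters these 4 shares were 25.0, 22.3, 20.8 and 21.8%, and for the PU.1 letters 3.88, 5.76, 3.73 and 3.34%. For the KLF letters they were 21.0, 22.5, 21.9 and 20.5%. These shares are descriptions and move with base composition.

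The last comparison asked where the difference between MZB and FoB itself depended on the genotype. Limma found 1 region with a larger difference in knockout cells (0.00111% of tested regions) and 0 with a smaller one, while 2753 and 2832 regions had an unadjusted p below 0.05. On the recovered reads edgeR found 2 regions and DESeq2 found 1. The median standard error of this difference of differences was 0.40 on the log2 scale, against 0.28 for the cell type difference. A median region thus had to differ by about 0.78 to leave its own 95% interval, before any adjustment for the number of regions. Passing at an adjusted p below 0.05 asked for more at such a region. In simulated data, the test of knockout MZB against knockout FoB recovered 53 of 100 regions changed 2-fold and 98 of 100 changed 4-fold. The changed regions had a mean of at least 5 rppm, no other region was changed, and the noise was a fixed setting. That was not the test of the difference between genotypes, so it does not give how often the latter finds a change. Given the standard error above, the count of regions that passed does not show that genotype effects are absent elsewhere. The region that passed lay within Ccdc93, a gene of endosomal protein sorting (chr1:121461682-121462971). It held 67.9, 67.8 and 64.1 rppm in knockout MZB against 32.1, 36.5 and 28.2 rppm in knockout FoB. The wild-type libraries held 85.3, 87.5 and 81.2 rppm in MZB and 78.3, 65.6 and 80.0 rppm in FoB. Both knockout groups lay below the wild-type group of the same cell type, knockout FoB by more. The log2 difference was 1.04 ± 0.098 in knockout and 0.19 in wild-type cells, and the difference between them 0.86 (adjusted p = 0.0288). It did not pass with median centring, with a pseudocount of 0.1, or without any of wild-type MZB libraries 1, 2 and 3, knockout MZB 1 and 2, knockout FoB 3 and wild-type FoB 1 and 3 (adjusted p up to 0.237). Its stretch of chromosome 1, from 120 to 125 Mb, had 9.88% of 81 regions with an unadjusted p below 0.05 in this test, against 6.22% of all regions.

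Next came Rgs18, a regulator of G protein signalling (chr1:144775155-144775783), with 30.6, 26.5 and 31.3 against 9.93, 12.2 and 6.86 rppm in knockout cells. The wild-type means were 42.8 ± 1.22 and 33.3 ± 6.84 rppm (SD, n = 3), and the adjusted p of the difference was 0.0545. At a Wwox region (chr8:114803086-114803654) knockout MZB held 20.1, 23.7 and 18.6 rppm and knockout FoB 65.8, 63.0 and 49.8 rppm, while the wild-type means were 10.3 ± 0.538 and 59.7 ± 5.02 rppm (adjusted p = 0.0545). Both cell type differences stood there in both genotypes, and their change did not pass in limma. It passed under 7 of 24 other settings at Rgs18, among them edgeR with and without TMM and robust shrinkage (adjusted p from 0.0032 to 0.372). At Wwox it passed under 6 of 24, among them quantile normalisation and robust shrinkage (0.0198 to 0.632). The remaining 7 regions of smallest p, at Serp2, Dgkg, Pag1, Tshz1, Tnnt2, Vps8 and Mmadhc, had adjusted p from 0.136 to 0.198. Of the regions at least 2-fold different between wild-type cell types, 0 passed this test by limma.

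**Figure D5:**
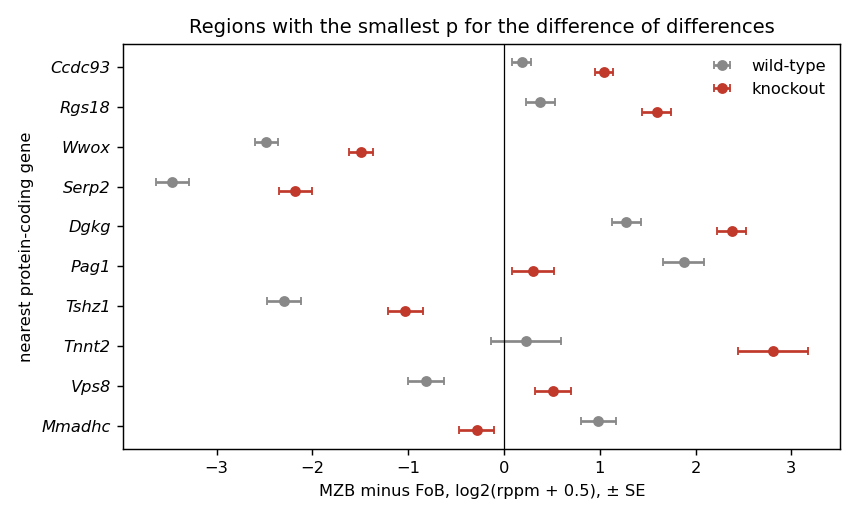
The log2 difference between MZB and FoB on the log2(rppm + 0.5) scale in wild-type (grey) and knockout cells (red), with bars of 1 standard error, at the 10 regions with the smallest p for the difference between genotypes. Ccdc93, at 0.19 in wild-type and 1.04 in knockout cells, is the region that passed, and the other 9 had adjusted p from 0.0545 to 0.198.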

How the data were processed

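The authors deposited 1 table of regions by libraries in rppm, an RPM over the listed regions only. Per the submitters' processing notes, Bowtie 1.1.1, MACS2 and the mm10 build were used. The sources used here do not give the merging of peaks, read filters, any Tn5 offset correction or whether coordinates count from 0 or 1, and coordinates are printed as deposited. Every value was a whole multiple of 1 read (100% within a tolerance of 0.01), so reads were recovered. No pair of libraries within a group was as alike as sampling noise alone allows.

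Limma 3.58.1 (R 4.3.3, variance trend) was fitted on log2(rppm + 0.5) with 4 group coefficients over 12 libraries, after removing 4379 regions under the filter. Fold changes on this scale understate those of low regions. Two-sided p-values were adjusted over 89782 regions by Benjamini-Hochberg, and all adjusted p-values of regions come from this fit unless a tool is named. Count tests (edgeR 4.0.16 and DESeq2 1.42.0 on recovered reads) were added after seeing the data.

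Regions went to the protein-coding gene (RefSeq, GRCm38.p6, 21900 genes) they overlap or lie nearest to. Promoter windows were those a tested region overlaps, in place of the planned 1000 bp from a gene end, and 17492 genes had a sequence. Named regions were the 8 of largest difference per direction with at least 5 rppm in the higher group and within 10000 bp of a gene, up to 4 genes per list by smallest p, the fullest region of each sort marker, and the 10 smallest p for the difference between genotypes. Members and lists were chosen with earlier results of these data known. Scripts were tested on simulated data. Some genes that the rule names are not reported here.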

Additional observations from a re-analysis of the deposited data

Results flagged for a closer look

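The Ccdc93 region is listed here because the difference between MZB and FoB differed between knockout and wild-type cells by a test of that difference itself. The value was 0.8572 on the log2 scale (limma adjusted p = 0.0288), with knockout MZB above knockout FoB in all 3 libraries of each and the wild-type libraries of the 2 cell types also apart, by less. All 81 tested regions between 120 and 125 Mb of chromosome 1 included 8 with an unadjusted p below 0.05 in this test.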

How the results depend on the processing

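Of 109 named regions with a call, 102 kept it under every setting that gave an adjusted p. The exceptions were Birc3, Nfkb2, B2m, Rsad2, Tal1, Itgam and Ccdc93. Most named regions were chosen for a large difference or a small p, so this does not measure the stability of calls in general. The sign turned, without a call in the main result, at Cd1d1 in DESeq2 (-0.0436), edgeR with TMM (-0.0578) and median centring (-0.29, which passed there), at Ptprc with quantile normalisation (0.0111) and at Kdm1a with median centring (-0.15).

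Counts are given as higher, then lower in MZB. DESeq2 gave 11848 higher in knockout and 13119 in wild-type cells. edgeR with TMM gave 14682 lower in knockout and 17032 in wild-type cells, of which 1980 and 2680 by at least 2-fold. A filter of 5 rppm in 3 or more libraries, which tests 47981 regions, left 12881 higher in knockout and 13196 in wild-type cells, with 6680 and 497 (knockout) and 6781 and 804 (wild-type) by at least 2-fold. Median centring gave 11311 and 25469 in knockout (7393 and 5185 by at least 2-fold) and 12233 and 24591 in wild-type cells (8149 and 5169). Quantile normalisation gave 12246 higher in knockout (7262 and 3615 by at least 2-fold) and 13509 higher in wild-type cells (7972 and 4888). A pseudocount of 2 left 5994 and 255 in knockout and 6557 and 527 in wild-type cells at 2-fold or more. The cause of these moves was not tested, apart from the smaller number of regions tested.

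Regions whose difference depended on genotype numbered 0 with median centring and with a pseudocount of 0.1, 2 in edgeR with and without TMM, 3 with robust shrinkage, 4 with quantile normalisation, 5 with a pseudocount of 2, and 0 without knockout MZB 1 and knockout FoB 3. Leaving out libraries in turn gave 0 to 4 such regions, 17067 to 21563 higher and 6848 to 8737 lower in knockout cells, 18466 to 22282 and 8263 to 10509 in wild-type cells, and 19214 to 20099 shared calls. At 2-fold or more these ranges were 12263 to 13977 and 889 to 1471 in knockout and 13142 to 14527 and 1270 to 1571 in wild-type cells.

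Replicate numbers did not pair the libraries (correlations of same-numbered deviations of -0.034, 0.068 and -0.073 in knockout cells). With the number as a replicate block, 20665 regions were higher and 8609 lower in knockout cells, and 5 depended on genotype. Where 3 reads reach 0.946 rppm, regions under that level are not resolved.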
